A study of Mus musculus with 8 samples.

Results

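The 48 genes described here encode chemokines, cytokines and targets or regulators of NF-κB, and they were taken from a list by gene symbol. All 48 were found on the array, of 22180 genes with a named probe set, and each was read from the probe set that carried only its symbol, with the highest mean where there were several (only *Csf2* had 2). They were measured in 4 DTC tumors and 4 mammary tumors, with 1 Affymetrix mouse gene array per tumor. DTC tumors were those grown from bone marrow cells of BALB-neuT donors, in which disseminated tumor cells (DTC) are found, and the labels give 3000000 to 5000000 injected cells. The labels call these cells early, whereas the paper obtained tumors only from late donors, that is, from older mice with invasive carcinomas. Mammary tumors came, according to the labels, from 100000 cells of TUBO, a cultured line of BALB-neuT mammary carcinoma, whereas the methods name primary BALB-neuT tumors. If the labels hold, traits of that line and of mammary tumors as a type cannot be told apart. By the paper's counts only a few of the injected bone marrow cells were DTC. The other marrow cells of the donor and the larger number of injected cells likewise cannot be told apart from the type of tumor. Both groups carried an activated rat *Her2/neu* oncogene under the mouse mammary tumor virus promoter, were injected subcutaneously with Matrigel and 1 µg bFGF, and grew in NSG mice, which lack mature T, B and NK cells but keep myeloid cells. Whether each tumor came from its own mouse is not stated, so the tests weigh differences only against the variation among these 8 samples.

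Chemokines are small secreted proteins that steer leukocytes through receptors on their surface. Those of the CC class mostly attract monocytes, macrophages and lymphocytes, and the CXC chemokines *Cxcl1*, *Cxcl2*, *Cxcl3* and *Cxcl5* attract neutrophils. *Cxcl9* and *Cxcl10* are induced by interferons and act on CXCR3 of T and NK cells. Many of these genes, and the cytokines TNF, IL-1 and IL-6, are switched on by NF-κB, a family of transcription factors held in the cytoplasm by inhibitors of the IκB type. The same factors induce their own brakes, such as *Nfkbia* and *Tnfaip3*, and in carcinomas the genes can be expressed by tumor cells, macrophages, fibroblasts and endothelial cells alike. In such bulk samples, fewer cells of a type and less RNA per cell cannot be told apart.

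The letters that NF-κB prefers stand close to the start of several members, and the stretches that hold them are shown because the results below set genes with and without a measurable level side by side. Promoters of 33 members, 39 promoters in all, were given in the RefSeq table (GRCm38.p6). The other 15 members, among them *Nfkbiz*, *Ccl2*, *Ccl4*, *Ccl5* and *Ccl7*, were not in it and were not searched. The 250 bases before each start were searched on both strands for GGGANNTTCC, a narrow form of the NF-κB motif, and for TGANTCA, the AP-1 motif. The first was present in *Cxcl1*, *Cxcl2*, *Cxcl3*, *Cxcl10*, *Il6*, *Nfkbia*, *Csf1* and *Nfkb2*, that is, in 8 of the 33 genes, and in 1.21% of the 32851 promoters of the table. The second was present in 8 of the 33 genes and in 6.75% of all promoters. Only the NF-κB match is in capitals below, 5′ to 3′ on the strand of the gene, and each stretch ends at the base before the start site. In *Cxcl1*, *Cxcl2* and *Cxcl3* the matches on the 2 strands overlap by all but 1 base and form the same run of letters.
Cxcl1, chr5:90891125-90891244, + strand: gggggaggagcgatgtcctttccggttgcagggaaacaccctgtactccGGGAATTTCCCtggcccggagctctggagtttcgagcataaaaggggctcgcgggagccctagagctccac
Cxcl2, chr5:90903779-90903898, + strand: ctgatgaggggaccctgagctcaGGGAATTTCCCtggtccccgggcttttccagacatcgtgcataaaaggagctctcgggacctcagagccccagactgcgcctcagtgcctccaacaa
Cxcl3, chr5:90785981-90786100, + strand: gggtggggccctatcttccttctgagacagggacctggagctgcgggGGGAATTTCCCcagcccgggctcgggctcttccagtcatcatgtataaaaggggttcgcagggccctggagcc
Il6, chr5:30012994-30013113, + strand: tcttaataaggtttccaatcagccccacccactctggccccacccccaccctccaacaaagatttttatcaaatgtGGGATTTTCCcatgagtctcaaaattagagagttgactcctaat
Nfkbia, chr12:55492648-55492767, - strand: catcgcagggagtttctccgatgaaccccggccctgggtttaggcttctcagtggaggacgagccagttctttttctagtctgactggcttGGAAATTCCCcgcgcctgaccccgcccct
Cxcl10, chr5:92348890-92349139, - strand: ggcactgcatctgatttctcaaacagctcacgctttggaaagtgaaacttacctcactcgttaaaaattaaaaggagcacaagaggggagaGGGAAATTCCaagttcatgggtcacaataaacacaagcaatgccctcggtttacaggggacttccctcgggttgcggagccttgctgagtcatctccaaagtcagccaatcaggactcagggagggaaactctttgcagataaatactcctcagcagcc

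Of the 48 genes, 35 were above background in at least 1 group. Background was taken, on each array, as the 95th percentile of 1400 probe sets of olfactory and vomeronasal receptor genes, which lay between 5.02 and 5.17 on the log2 scale, and a gene was above it in a group when all 4 arrays exceeded it. In DTC tumors 35 members met this rule and in mammary tumors 34, and of all 22180 genes 59.0% met it in at least 1 group. Just inside the limit lay the chemokine *Ccl20*, at 5.23 to 5.63 in DTC tumors and 5.22 to 5.31 in mammary tumors, and *Il23a*, a subunit of IL-23, at 5.18 to 5.88 in DTC tumors and 4.89 to 5.56 in mammary tumors. Just outside lay *Ccl17*, above background on 1 array, and *Csf3*, which encodes G-CSF, on 2 arrays. With the 99th percentile as the limit, 6.31 to 6.70 by array, 17 members remained above background. Of the genes described below, *Nfkbiz* and *Ccl7* were among them. *Tnf*, *Tnfaip3*, *Ccl2*, *Ccl4*, *Cxcl1* and *Cxcl10* were not.

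**Figure D1:**
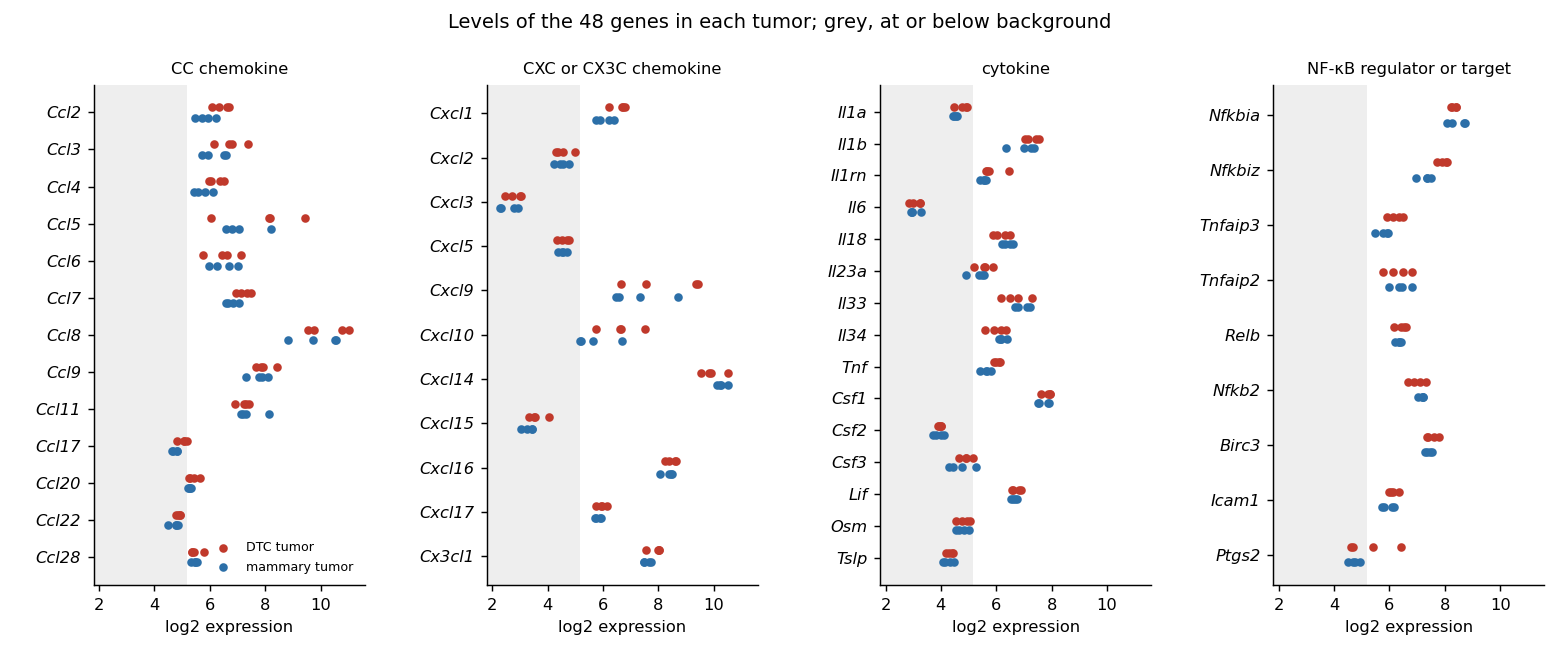
Log2 expression (x axis) of the 48 genes (rows, by class) in each tumor, with DTC tumors in red and mammary tumors in blue, 1 point per tumor. The grey area ends at the highest background level, 5.17, and holds all 8 points of 10 genes, *Il6* and *Cxcl3* among them.

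Several classic inflammatory cytokines were not above background on any array. These 10 genes were *Il6*, *Il1a*, *Csf2* (GM-CSF), *Osm*, *Tslp*, *Ccl22*, *Cxcl2*, *Cxcl3*, *Cxcl5* and *Cxcl15*, so that for them only an upper bound can be given. *Il6* stood at 2.99, 3.23, 3.25 and 2.86 in DTC tumors and at 2.92, 2.94, 3.27 and 2.95 in mammary tumors. *Cxcl3* stood at 2.47 to 3.02 in DTC tumors and 2.29 to 2.92 in mammary tumors, and *Cxcl2* at 4.31 to 4.98 in DTC tumors and 4.22 to 4.77 in mammary tumors. Both attract neutrophils and share with *Cxcl1* the run of letters printed above, while *Cxcl1* was above background on all 8 arrays. In 3 further genes only some arrays were above background, as for *Ptgs2*, which encodes a prostaglandin enzyme, above it in DTC tumors 1 and 3 only.

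No member was called different between the groups, whereas 8 were higher in DTC tumors by an unadjusted p up to 0.05. The test was limma on the 18877 probe sets that varied enough across the arrays (interquartile range above 0.25), among them 28 of the 48 members. With Benjamini-Hochberg adjustment 0 of the 28 passed an adjusted p of 0.05, as 0.143% of all tested probe sets did, and the smallest adjusted p of a member was 0.160. By an unadjusted p up to 0.05 in limma, 8 of the 28 (28.6%) were higher and 0 were lower in DTC tumors, against 6.47% and 8.28% of all tested probe sets. The members were chosen with earlier results of these tumors known, so this share is a description. The count of higher members changed with the tumors that were included. Leaving out DTC tumor 4 left 2 members higher at this p, and leaving out DTC tumor 1 left 4. The same count was 2 when mammary tumor 2 was omitted, 3 when the first mammary tumor was, and 5 when the third was. It was 8 without DTC tumor 2, 9 without DTC tumor 3 and 10 without mammary tumor 4. The matching shares of all probe sets in these smaller fits are not given.

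Over all 48 members the median log2 difference (DTC minus mammary tumors) was 0.16, and 39 had a higher mean in DTC tumors. Of all genes 51.7% had a higher mean there, with a median difference of 0.01. Over the 35 members above background the median was 0.18, and 26 had a higher mean in DTC tumors, against a median of -0.01 and 47.6% over all 13077 genes above background. The differences were small, and none of the 48 reached 1 in absolute size. Among the 20 members that the interquartile range left out of the fit, 15 were above background, and the smallest p of an exact two-sided permutation test of 4 against 4 tumors was 0.0571.

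**Figure D2:**
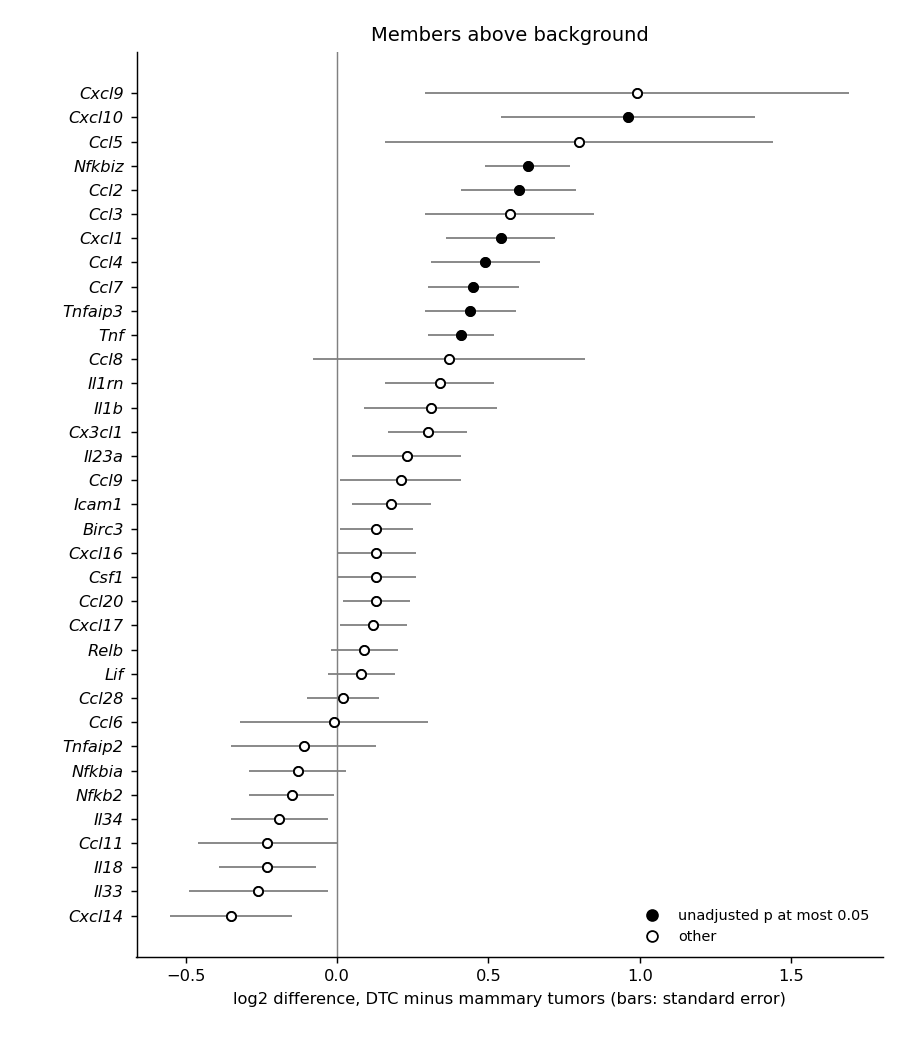
Log2 difference between DTC and mammary tumors (x axis, positive where DTC tumors were higher) of the 35 members above background, with the standard error of limma over all probe sets as bars. Filled points mark the 8 genes with an unadjusted p up to 0.05 in limma, all of them above 0, and *Cxcl9*, *Ccl5* and *Ccl8* have the widest bars.

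Of the 9 members listed as regulators or targets of NF-κB, *Nfkbiz* separated the groups and *Tnfaip3* nearly did. *Nfkbiz* encodes IκBζ, a nuclear relative of the IκB inhibitors that helps NF-κB to switch on secondary response genes. It stood at 8.07, 7.71, 8.03 and 7.90 in DTC tumors 1 to 4, against 7.34, 6.97, 7.51 and 7.35 in mammary tumors 1 to 4. Every DTC tumor thus lay above every mammary tumor, and the difference of 0.63 (standard error 0.17, a 1.55-fold higher level) had an unadjusted p of 0.00382 and an adjusted p of 0.160 in limma. *Tnfaip3*, which encodes A20, an enzyme that ends NF-κB signalling, stood at 6.34, 5.91, 6.12 and 6.49 in DTC tumors and at 5.77, 5.49, 5.90 and 5.93 in mammary tumors. Its groups touched, with DTC tumor 2 just below mammary tumor 4, at a difference of 0.44 (standard error 0.18, unadjusted p = 0.0357, adjusted p = 0.314 in limma).

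The others of this class differed in both directions. *Ptgs2*, which encodes COX-2 and was above background in 2 DTC tumors only, differed by 0.56 (unadjusted p = 0.133 in limma) and is given by tumor further on. *Nfkbia*, which encodes the main inhibitor IκBα and is itself a target, differed by -0.13, at 8.22 to 8.40 in DTC tumors and 8.08 to 8.73 in mammary tumors. *Nfkb2* and *Relb*, both subunits of the noncanonical pathway, differed by -0.15 and 0.09, *Birc3*, an inhibitor of cell death, by 0.13, and the adhesion molecule *Icam1* by 0.18. *Tnfaip2* differed by -0.11 with wide spread, at 5.76 to 6.80 in DTC tumors and 6.0 to 6.80 in mammary tumors. For each of these 6 genes and for *Ptgs2* the groups overlapped.

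*Tnf*, the cytokine that gave the pathway its best known trigger, was the other member whose groups did not overlap. It stood at 6.0, 5.91, 6.11 and 6.13 in DTC tumors and at 5.64, 5.41, 5.80 and 5.65 in mammary tumors. The difference was 0.41 (standard error 0.16, unadjusted p = 0.0229, adjusted p = 0.278 in limma). Groups that did not overlap with DTC tumors higher were found for 2 of the 28 tested members (7.14%) and for 3.85% of all tested probe sets, and with DTC tumors lower for 0 members and 6.15% of probe sets. The exact permutation p of *Nfkbiz* and of *Tnf* was 0.0286, the smallest that 4 against 4 tumors can give.

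Of the chemokines tested, 3 of 8 of the CC class (*Ccl2*, *Ccl4* and *Ccl7*) and 2 of 7 of the CXC and CX3C classes (*Cxcl1* and *Cxcl10*) were higher in DTC tumors by an unadjusted p up to 0.05 in limma, and 0 passed with adjustment. *Ccl2*, the main attractant of monocytes through CCR2, stood at 6.33, 6.71, 6.09 and 6.62 in DTC tumors and at 5.73, 5.46, 6.24 and 5.93 in mammary tumors, a difference of 0.60 (standard error 0.21, unadjusted p = 0.0169, adjusted p = 0.257 in limma). *Ccl7*, its neighbour on chromosome 11 and likewise a CCR2 ligand, stood at 7.14, 6.96, 7.33 and 7.50 in DTC tumors and at 6.67, 7.06, 6.57 and 6.82 in mammary tumors, a difference of 0.45 (standard error 0.18, unadjusted p = 0.0300, adjusted p = 0.298 in limma). In each case 1 mammary tumor reached into the range of DTC tumors, number 3 for *Ccl2* and number 2 for *Ccl7*. *Cxcl1*, a neutrophil attractant, stood at 6.70, 6.21, 6.79 and 6.72 in DTC tumors and at 5.90, 5.74, 6.40 and 6.23 in mammary tumors, a difference of 0.54 (standard error 0.20, unadjusted p = 0.0236, adjusted p = 0.280 in limma). DTC tumor 2 was the low one here, within the mammary range.

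*Ccl3* and *Ccl4*, which encode macrophage inflammatory proteins, lie side by side on chromosome 11. *Ccl4* stood at 6.38, 6.06, 5.96 and 6.51 in DTC tumors and at 5.83, 5.56, 5.44 and 6.11 in mammary tumors, a difference of 0.49 (standard error 0.20, unadjusted p = 0.0335, adjusted p = 0.308 in limma). *Ccl3* stood at 6.80, 6.70, 6.16 and 7.37 in DTC tumors and at 5.95, 5.71, 6.52 and 6.60 in mammary tumors, a difference of 0.57 (standard error 0.28, unadjusted p = 0.0711, adjusted p = 0.385 in limma). Both were highest in DTC tumor 4, and without that tumor the difference of *Ccl3* was 0.36. Not all genes of the chromosome 11 clusters had a higher mean in DTC tumors. *Ccl11*, which encodes eotaxin and lies between *Ccl7* and *Ccl8*, differed by -0.23, and *Ccl6* by -0.01, at 6.45, 7.11, 5.74 and 6.62 in DTC tumors and 6.70, 7.01, 6.27 and 5.97 in mammary tumors.

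**Figure D3:**
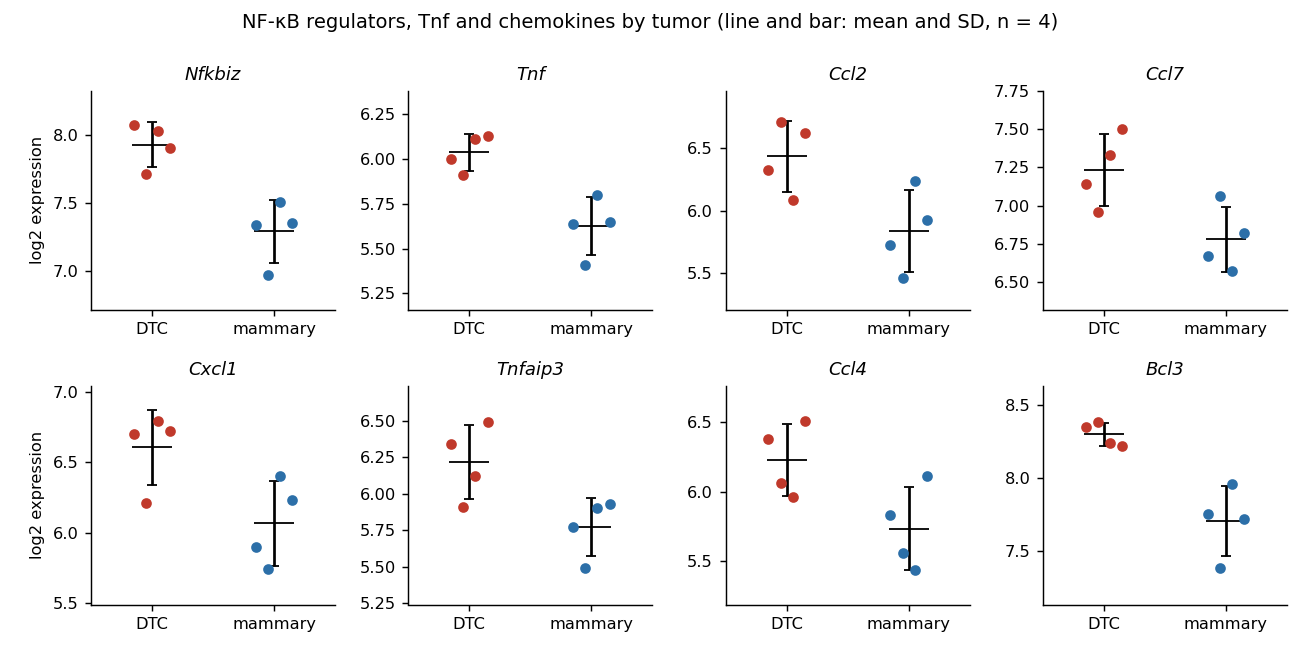
Log2 expression (y axis, a scale for each gene) of 7 members and of *Bcl3* in the 4 DTC tumors (red) and the 4 mammary tumors (blue), 1 point per tumor, with the mean and SD in black. The groups separate fully for *Nfkbiz*, *Tnf* and *Bcl3*, and in the other 5 genes at least 1 mammary tumor lies above the lowest DTC tumor.

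*Cxcl9*, *Cxcl10* and *Ccl5* had the largest differences between group means, and, with *Ccl8*, the widest spread within groups of all members above background. *Cxcl9* stood at 7.57, 9.37, 6.66 and 9.44 in DTC tumors and at 6.46, 7.32, 6.59 and 8.72 in mammary tumors, with SDs of 1.38 and 1.04. The difference of 0.99 (standard error 0.66) had an unadjusted p of 0.159 and an adjusted p of 0.539 in limma. DTC tumors 2 and 4 and mammary tumor 4 were high, and DTC tumor 3 lay within the mammary range. *Cxcl10* stood at 6.62, 6.66, 5.74 and 7.50 in DTC tumors and at 5.17, 5.20, 5.63 and 6.70 in mammary tumors, a difference of 0.96 (standard error 0.40, unadjusted p = 0.0366, adjusted p = 0.316 in limma). *Ccl5*, an attractant of T cells and monocytes, stood at 8.15, 8.19, 6.05 and 9.43 in DTC tumors and at 7.04, 6.58, 6.79 and 8.20 in mammary tumors, a difference of 0.80 (standard error 0.60, unadjusted p = 0.211, adjusted p = 0.607 in limma).

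DTC tumor 3 was the lowest and DTC tumor 4 the highest of the DTC tumors in all 3 genes, and mammary tumor 4 was the highest of the mammary tumors. The size of the difference therefore moved with single tumors. Without DTC tumor 3 it was 1.53 for *Cxcl9* and 1.44 for *Ccl5*, and without DTC tumor 4 it was 0.60 for *Cxcl9* and 0.31 for *Ccl5*. For *Cxcl9* it was also 0.62 when DTC tumor 2 was omitted. In *Cxcl10* the difference ranged between 0.67 and 1.30 as each tumor was left out in turn.

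Interferon-stimulated genes, chosen after these values were seen, also varied widely between single tumors, in an order that was not the same. *Irf7*, a transcription factor of the interferon response, stood at 10.16, 9.88, 7.57 and 10.85 in DTC tumors and at 9.22, 9.16, 8.83 and 11.26 in mammary tumors, and *Isg15* at 9.52, 9.49, 7.50 and 10.30 in DTC tumors and at 8.85, 8.81, 8.45 and 10.37 in mammary tumors. These genes were lowest of all in DTC tumor 3 and highest in mammary tumor 4, whereas *Cxcl9*, *Cxcl10* and *Ccl5* were highest in DTC tumor 4. *Ifit1*, *Gbp3* and *Usp18* had the same extremes as *Irf7*, while *Irf1* was lowest in mammary tumor 2 and *Ifit3* lowest in mammary tumor 3 and highest in DTC tumor 4. Within each group *Irf7*, *Isg15*, *Ifit1*, *Gbp3* and *Usp18* were lowest in tumor 3 and highest in tumor 4. The group means differed by -0.00 for *Irf7* and 0.08 for *Isg15*. *Ifng* and *Ifnb1*, which encode interferons γ and β, were not above background on any array. Of 5 T cell markers *Cd3e*, *Cd3g* and *Cd8a* were likewise not above background on any array, *Cd3d* was above it on 1 array and *Cd4* on 6, with all 4 mammary tumors among them. *Cd3g*, though below background, stood at 3.77 to 4.76 in DTC tumors and 3.09 to 3.17 in mammary tumors (unadjusted p = 0.000833, adjusted p = 0.102 in limma). Of 5 NK cell markers *Nkg7* and *Prf1* were above background on all 8 arrays and *Ncr1*, *Klrb1c* and *Gzma* on none. The part of such cells in the chemokine levels was not tested. *Cxcr3*, the receptor of *Cxcl9* and *Cxcl10*, stood at 5.68 to 5.95 in DTC tumors and at 5.69 to 5.77 in mammary tumors.

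*Ccl8*, a chemokine of monocytes and macrophages, did not follow these genes. It stood at 9.55, 10.78, 9.75 and 11.04 in DTC tumors and at 10.55, 10.52, 9.73 and 8.83 in mammary tumors, so that mammary tumor 4, high in *Cxcl9*, was the lowest of all in *Ccl8*. The difference was 0.37 (standard error 0.43, unadjusted p = 0.405, adjusted p = 0.773 in limma), and without mammary tumor 4 it was 0.02. *Mrc1*, the mannose receptor of macrophages, was also highest in DTC tumor 4, at 9.46, and lowest in mammary tumor 4, at 7.78. No other of the 10 macrophage markers read had both extremes, and *Csf1r* and *Lyz2* were lowest in DTC tumor 3. The mean of the list did have them, at 8.85 and 8.20. The part of macrophages in the level of *Ccl8* was not tested.

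**Figure D4:**
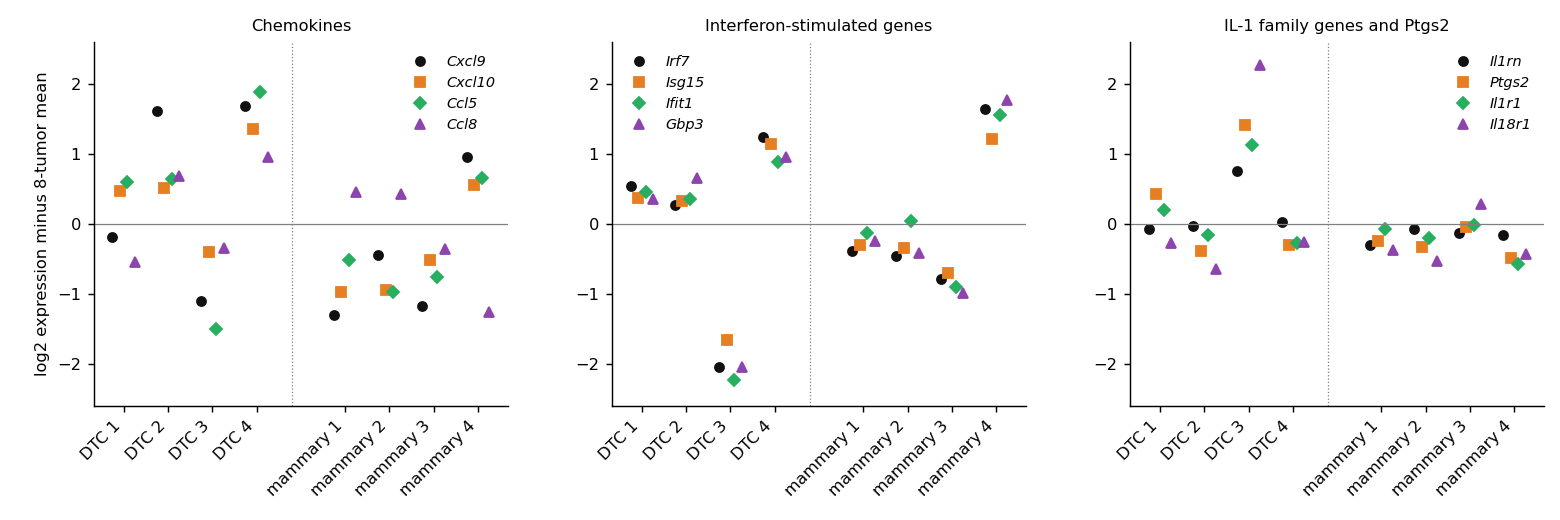
Log2 expression minus the mean of the 8 tumors (y axis) in each tumor (x axis, DTC tumors left of mammary tumors) for chemokines, interferon-stimulated genes, and *Ptgs2* with 3 selected genes of the IL-1 family, each gene with its own marker. DTC tumor 3 lies lowest among DTC tumors in *Cxcl9*, *Cxcl10*, *Ccl5* and the interferon-stimulated genes and highest of all tumors in the right panel, and *Ccl8* is lowest in mammary tumor 4.

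*Ptgs2*, *Il1rn* and some receptor genes of the IL-1 family were highest in DTC tumor 3. Apart from *Il1r1* they are set out because of these values. *Il33* (7.30), *Il1rap* (8.26) and *Il1a* (4.96, below background) were also highest in DTC tumor 3, while other genes of the family did not share the pattern. *Il1b* was highest in DTC tumor 4, *Il18* in mammary tumor 3, and the decoy receptor *Il1r2* in DTC tumor 4, with DTC tumor 3 the lowest DTC tumor at 5.12. *Ptgs2* stood at 5.42, 4.61, 6.41 and 4.70 in DTC tumors and at 4.51 to 4.95 in mammary tumors. *Il1rn*, which encodes the natural antagonist of the IL-1 receptor, stood at 5.64, 5.68, 6.46 and 5.73 in DTC tumors and at 5.41, 5.64, 5.57 and 5.55 in mammary tumors. *Il18r1* and *Il18rap*, the 2 chains of the IL-18 receptor, stood at 7.47 and 6.64 in DTC tumor 3, against at most 4.94 and 4.42 in the other DTC tumors and at most 5.49 and 4.39 in mammary tumors. The IL-1 receptor *Il1r1* stood at 7.20, 6.84, 8.12 and 6.72 in DTC tumors and at 6.93, 6.79, 6.98 and 6.42 in mammary tumors. The myeloid marker *Cd14* was also highest in DTC tumor 3, at 11.44. It was the only one of the 10 macrophage markers read that was highest there. *Csf1r*, *Lyz2* and *C1qa* were lowest of all tumors in DTC tumor 3. The part of myeloid cells in these values was not tested.

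Of the cytokines of this family, *Il1b*, *Il33*, *Il18* and *Il1a*, the last below background on every array, entered the fit. None of them passed with adjustment in limma. *Il1b* stood at 7.14, 7.05, 7.44 and 7.54 in DTC tumors and at 6.99, 7.24, 7.35 and 6.36 in mammary tumors, a difference of 0.31 (unadjusted p = 0.212 in limma). *Il33*, an alarm signal of epithelial and stromal cells, differed by -0.26 and *Il18* by -0.23, with adjusted p-values of 0.697 and 0.649 in limma. *Csf1* and *Il34*, both ligands of the macrophage receptor CSF1R, differed by 0.13 and -0.19, and *Lif* by 0.08. *Cxcl14*, a chemokine of epithelial cells, had the lowest difference of all members, -0.35, at 9.53 to 10.50 in DTC tumors and 10.11 to 10.53 in mammary tumors (unadjusted p = 0.138, adjusted p = 0.509 in limma). *Cx3cl1*, a membrane-bound chemokine, differed by 0.30, with DTC tumors at 7.97, 7.57, 8.01 and 8.03 and mammary tumors at 7.49 to 7.74. The groups overlapped in each of the remaining chemokines above background, none of which varied enough to enter the fit. *Ccl17*, *Cxcl2* and *Cxcl3*, not above background in either group, did enter it. Their groups overlapped too, with adjusted p-values of 0.437, 0.939 and 0.705 in limma. *Ccl9* stood at 7.68 to 8.42 in DTC tumors and 7.30 to 8.11 in mammary tumors, and *Cxcl16*, which is made as a membrane-bound protein, at 8.25 to 8.64 in DTC tumors and 8.06 to 8.49 in mammary tumors. *Ccl28* and *Cxcl17*, both chemokines of mucosal epithelia, stood at 5.34 to 5.79 and 5.76 to 6.14 in DTC tumors, against 5.33 to 5.55 and 5.71 to 5.93 in mammary tumors.

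The spread between tumors of a group was wider for the members than for genes at large. The SD within groups, pooled over both, had a median of 0.24 over the 35 members above background and of 0.17 over all genes above background. Among these 35 members DTC tumor 4 was the highest of the 8 tumors for 18 genes and mammary tumor 2 the lowest for 10. The same counts over all genes above background are not given, so these may not be particular to the members. The median deviation of a tumor from the 8-tumor mean was 0.02, -0.07, 0.13 and 0.25 in DTC tumors 1 to 4 and -0.12, -0.07, -0.08 and -0.02 in mammary tumors 1 to 4. DTC tumor 2 thus lay within the range of the mammary tumors over the 35 members above background read together, and DTC tumor 1 just above it.

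Receptors of these ligands and further NF-κB regulators outside the 48 were read from 3 lists. Of their 66 genes 59 were matched and 22 were tested, and 2 were higher and 1 was lower in DTC tumors at an unadjusted p up to 0.05 in limma, against the 6.47% and 8.28% given above. With adjustment 0 passed in limma. The count of higher genes was 5 without DTC tumor 3 and 1 without DTC tumor 1. *Bcl3*, like *Nfkbiz* an atypical nuclear IκB protein, stood at 8.35, 8.38, 8.24 and 8.22 in DTC tumors and at 7.75, 7.38, 7.96 and 7.72 in mammary tumors, a difference of 0.60 (standard error 0.17, unadjusted p = 0.00447, adjusted p = 0.166 in limma). *Tnfrsf1b*, the second TNF receptor, stood at 7.66 to 7.89 in DTC tumors and 7.02 to 7.55 in mammary tumors (0.42, unadjusted p = 0.0268, adjusted p = 0.288 in limma), and the adaptor *Tradd* of the first TNF receptor at 5.91 to 6.15 in DTC tumors and 6.22 to 6.52 in mammary tumors (-0.35, unadjusted p = 0.0425, adjusted p = 0.327 in limma). In all 3 genes the groups did not overlap, as in 3.85% (DTC tumors higher) and 6.15% (lower) of all tested probe sets. Two-way separation was also seen in *Otulin* (6.80 to 6.89 in DTC tumors, 6.90 to 7.27 in mammary tumors) and in *Il1r2*, higher in DTC tumors. Neither varied enough to enter the fit, and *Il1r2* was not above background in either group. The count of tested genes lower at this p was 0 in 6 of the 8 fits that left out 1 tumor, and 1 without DTC tumor 3 or mammary tumor 1.

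The NF-κB subunit *Rela* differed by -0.23 and the kinase *Map3k7*, which encodes TAK1, by 0.41, with adjusted p-values of 0.609 and 0.368 in limma. Of 21 chemokine receptors 9 were above background, and 0 of the 8 tested had an unadjusted p up to 0.05 in limma. *Ccr2*, the receptor of *Ccl2* and *Ccl7*, stood at 6.19, 6.40, 5.81 and 6.60 in DTC tumors and at 6.02, 6.02, 5.99 and 5.66 in mammary tumors, a difference of 0.32 (adjusted p = 0.498 in limma). *Ccr1* differed by 0.16, *Cxcr4* by -0.32 and *Cx3cr1*, the receptor of *Cx3cl1*, by 0.07. Among cytokine receptors *Il7r* differed by 0.37, *Lifr* by 0.14, *Osmr* by 0.08 and *Tnfrsf1a* by 0.04.

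Arrays correlated at 0.977 to 0.988 within groups and at up to 0.984 between them, across probe sets. Of 6 epithelial tumor markers 5, among them *Epcam*, *Krt8* and *Erbb2*, were above background in all tumors and *Krt19* in none. All 10 macrophage markers were above background, and their mean log2 level was 8.49 to 8.85 in DTC tumors and 8.20 to 8.82 in mammary tumors, highest in DTC tumor 4 and lowest in mammary tumor 4. Of 8 neutrophil markers only *Cxcr2* was above background. The 6 fibroblast markers were all above background and had a mean log2 level of 8.40 to 8.92 in DTC tumors and 8.99 to 9.32 in mammary tumors, so that the means of this list did not overlap, with DTC tumors lower. That difference came from *Lum* (-1.23), *Dcn* (-0.85) and *Pdgfra* (-0.42), whereas the collagen genes *Col1a1*, *Col1a2* and *Col3a1* differed by 0.02, -0.08 and -0.08. The part of these cell types in the differences above was not tested.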

How the data were processed

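RNA from tumor shavings was hybridized to Affymetrix mouse gene arrays. The values deposited by the authors are log2 levels of 41345 probe sets, made in oneChannelGUI with sketch-quantile normalization, to which their interquartile filter had not been applied. How probes were summarized is not given in the sources used here. Normalization of this kind sets the arrays to like distributions, so values are relative within an array. Of the probe sets, 23521 had 1 gene symbol in the platform annotation and those with several were not named. The text follows 48 members and 3 pathway lists, chosen with earlier results of these data known.

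Under R 4.3.3, limma 3.58.1 (functions lmFit and eBayes) compared the groups on all 18877 probe sets whose interquartile range exceeded 0.25, and p-values were adjusted over them by Benjamini-Hochberg. Values in every tumor are given for members above background with an unadjusted p up to 0.05, groups that do not overlap, one of the 12 largest differences or one of the 6 largest SDs within a group. Of each pathway list up to 4 genes above background with the smallest p and 2 more are named. Names outside these rules were chosen after their values were seen, as were the interferon-stimulated genes. The number of arrays limits the precision. Alternatives covered the filters, the normalization, the variance model, array weights, the replicate block, the choice of probe set, the background level and leaving out each tumor. Promoter sequences and the places of genes on chromosomes came from RefSeq.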

Additional observations from a re-analysis of the deposited data

Results flagged for a closer look

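In the 48 members and 16 further named genes, each group of 4 tumors was screened for a tumor far from the other 3, by the gap to its nearest neighbour over the range of the group. Of 128 such groups 8 passed the 95% limit of Dixon's test, where chance alone gives about 1 in 20. That rate does not hold for *Il18r1* and *Il18rap*, which were picked because DTC tumor 3 was high. DTC tumor 3 was set apart in 4 genes. It was highest for *Il1rn* (6.46, against 5.64 to 5.73 in the other DTC tumors), for *Il18r1* (7.47, against 4.55 to 4.94) and for *Il18rap* (6.64, against 4.20 to 4.42), and lowest for *Lifr* (7.80, against 8.60 to 8.64). DTC tumor 2 was lowest for *Cxcl1* (6.21, against 6.70 to 6.79) and for *Cx3cl1* (7.57, against 7.97 to 8.03). Mammary tumor 3 was highest for *Il6* (3.27, against 2.92 to 2.95 in the other mammary tumors), below background on every array, and mammary tumor 4 was lowest for *Ccr2* (5.66, against 5.99 to 6.02).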

How the results depend on the processing

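No member passed an adjusted p of 0.05 in limma under any of the 17 alternatives. The lowest adjusted p from limma was 0.0535, for *Nfkbiz* with 1 probe set per gene, and its adjusted p otherwise reached 0.366. The count of members higher at an unadjusted p up to 0.05 was 2 with an interquartile range above 0.5, where 11 members were tested, and 2 to 10 with 1 tumor left out, and that of lower members 0 to 1. The count of pathway genes higher was 4 without the interquartile filter, 1 with a range above 0.5 and 1 to 5 with 1 tumor left out. The count of those lower was 0 with a range above 0.5, with a robust trended variance and with the replicate block, and 0 to 1 with 1 tumor left out. With the 99th percentile as background 17 members remained above it. *Ccl6* had a difference of 0.06 with array weights and of -0.22 to 0.24 with 1 tumor left out, turning positive or to 0.00 when DTC tumor 3 (0.24), mammary tumor 2 (0.17), mammary tumor 1 (0.06) or DTC tumor 1 (0.00) was omitted. Differences of single genes were recomputed for the 13 members that the rule on values in every tumor selected, and the other 12 of them kept their direction under every alternative run. The cause of these changes was not tested. With the replicate number as a block 9 members were higher and 0 lower at an unadjusted p up to 0.05 in limma, and 0 passed the adjusted p. With this block the unadjusted p in limma fell for *Cxcl9* (0.159 to 0.0123), *Cxcl10* (0.0366 to 0.0062) and *Ccl5* (0.211 to 0.0614). It rose for others, as for *Ccl2* (0.0169 to 0.0366) and *Ccl7* (0.0300 to 0.0498). Only 2 of the 4 pairs of tumors with the same number, 3 and 4, deviated together (correlation above 0.1, range 0.01 to 0.19). The numbers were therefore not read as pairs in the main fit, and what they stand for was not tested.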
